A study of Canis lupus familiaris with 28 samples.

Results

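The comparison described here sets 2 libraries of confluent double knockdown cells against 2 libraries of sub-confluent wild-type cells, 4 of the 28 samples in the series, chosen by their titles. The question is how far crowded cells with shRNAs against both p190 proteins resemble sparse wild-type cells, and where they differ. All samples are TR-T10, a line of dog cells whose introduced constructs are under the control of a tetracycline repressor. The double knockdown cells carry doxycycline-inducible shRNAs against p190A and p190B. They were made by adding the p190A shRNA, with hygromycin selection, to cells that already held the p190B shRNA and had been selected in puromycin. For knockdown, the protocol gives 3 days of doxycycline at 4 µg/ml on sub-confluent cells, followed by 3 to 5 days after replating at either density. The wild-type cells are labelled with no shRNA, and the labels do not say whether they received doxycycline or a selection drug. Genotype, density, selection and any unequal drug exposure therefore all differ between the 2 groups and cannot be told apart by this comparison alone.

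p190A and p190B (ARHGAP35 and ARHGAP5) are a pair of related signalling proteins. YAP is a transcriptional coactivator that works with TEAD factors on growth genes and is known to leave the nucleus in crowded cells. Epithelial cells normally slow their division when they touch their neighbours, a behaviour called contact inhibition, and the series asks whether the p190 proteins take part in it.

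Each library held between 12165555 and 15390387 reads assigned to single transcripts, in the unit of raw counts, and 15346 to 15750 of the 29884 Ensembl dog transcripts had at least 1 read. The replicates lay close together: the median absolute log2 difference between replicates was 0.157 in confluent double knockdown and 0.172 in sub-confluent wild-type libraries, within the range of 0.154 to 0.284 over the 8 groups of experiment 1. The files do not pair transcripts with gene names, and 0 of the identifiers matched the reference table of 43286 dog genes. The shRNA targets, cell type markers and pathway members could therefore not be read, and transcripts are described by identifier and by what they did in other libraries of the series. The labels do not state that replicates are separate cultures, and the p-values thus reflect the spread of these samples, which could be technical only. In bulk RNA, a change in the number of cells that make a transcript and a change in its amount per cell cannot be told apart.

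Confluent double knockdown cells differed from sub-confluent wild-type cells in 3390 transcripts, 26.4% of the 12845 tested (edgeR quasi-likelihood test, adjusted p under 0.05). Of these, 1575 were higher (12.3% of those tested) and 1815 were lower (14.1%). Large changes were more often falls: 425 transcripts were called higher by 2-fold or more (3.31%) and 751 lower by as much (5.85%). Among the 8546 transcripts with a mean log2 CPM (counts scaled to a common total of assigned reads) of at least 3, where fold changes depend little on single reads, 30 were called higher by 4-fold or more and 67 lower by as much. At 8-fold or more the counts in this better measured part were 8 higher and 14 lower. The count of 3390 rested on both libraries of each group. Leaving out confluent double knockdown replicate 1 gave 2154 calls and leaving out its replicate 2 gave 2111. Leaving out sub-confluent wild-type replicate 1 gave 2187 and leaving out its replicate 2 gave 2111.

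**Figure D1:**
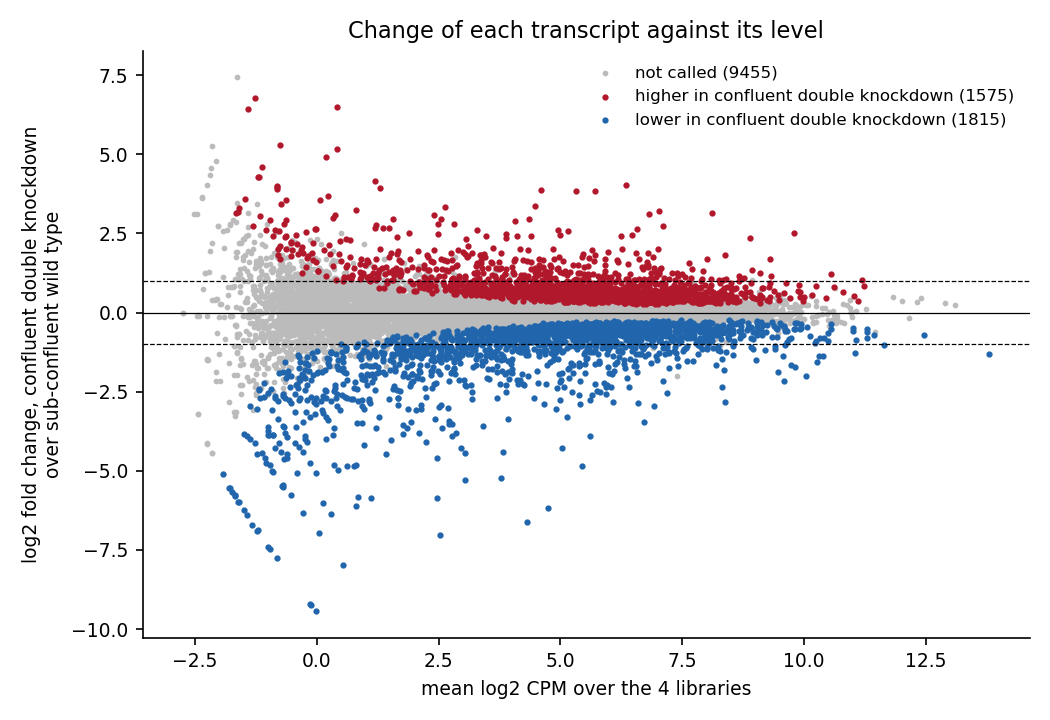
Log2 fold change of each of the 12845 tested transcripts, confluent double knockdown over sub-confluent wild type, against its mean log2 CPM over the 4 libraries. Red points are the 1575 called higher, blue points the 1815 called lower and grey points the rest; dashed lines mark a 2-fold change, and the points reach further below the lower line than above the upper one.

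A missed test does not show that 2 groups are alike, so resemblance was counted from intervals. For 8115 transcripts, 63.2% of those tested, the 95% interval of the fold change lay entirely within 2-fold in either direction. Against the same sub-confluent wild-type libraries, the share was 61.0% for confluent wild type and 59.6% for sub-confluent double knockdown. A share of this size was thus not particular to crowded double knockdown cells. The 63.2% followed the level of the transcript. It was 16.1% in the lowest quartile of mean level and 65.6%, 84.0% and 87.1% in the next 3 quartiles, as the median standard error of the log2 fold change fell to 0.121 in the highest quartile, against 0.467 in the lowest. The share of transcripts called also followed the level, from 15.8% in the lowest quartile to 34.3% in the highest, so the low quartile held many transcripts that were neither called different nor shown to be within 2-fold.

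Over whole libraries, crowded double knockdown cells lay about as far from sparse wild-type cells as crowded wild-type cells did. The 4 pairs of a confluent double knockdown and a sub-confluent wild-type library had median absolute log2 differences of 0.340 to 0.349 (mean 0.346 ± 0.00375, SD over 4 pairs that share libraries). Confluent and sub-confluent wild-type libraries lay 0.336 to 0.398 apart (mean 0.368 ± 0.0338), a range that overlaps the first. Sub-confluent double knockdown libraries lay 0.356 to 0.453 from sub-confluent wild type (mean 0.399 ± 0.0458), and confluent double knockdown libraries lay 0.419 to 0.483 from confluent wild type (mean 0.454 ± 0.0328), with each pair of these 2 kinds further apart than any pair of the first. All of these distances exceeded those between replicates. Confluent double knockdown libraries lay nearest to sub-confluent double knockdown, at 0.206 to 0.288 (mean 0.241 ± 0.0391). That range holds the 0.215 between the sub-confluent double knockdown replicates. With 2 libraries against 2, the smallest two-sided exact permutation p is 0.333, so the distances are a description.

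The transcripts that follow cell contact gave another picture. To choose them outside the 4 libraries, the 8 single knockdown libraries (p190A or p190B shRNA, confluent and sub-confluent) were fitted alone, and 403 transcripts were called higher at confluence by 2-fold or more (3.24% of 12424) and 289 lower by as much (2.33%). These are therefore density responses of cells in which 1 of the p190 proteins was targeted. Calls of any size were made for 11.6% (higher) and 13.3% (lower) of the transcripts. Over these 692 transcripts, confluent double knockdown libraries lay 0.706 to 0.797 from sub-confluent wild type, against 1.412 to 1.518 for confluent wild type. Sub-confluent double knockdown libraries lay 0.705 to 0.911 away. Confluent and sub-confluent double knockdown libraries lay 0.575 to 0.842 from each other. Replicates of these 4 groups differed by 0.281 to 0.466 over the same transcripts, so crowded double knockdown cells were nearer to the sparse wild-type state than crowded wild-type cells were, without reaching the distance between replicates. Over the 1541 transcripts that the double knockdown changed at least 2-fold in experiment 2, the order was the other way: confluent double knockdown libraries lay 0.801 to 0.849 from sub-confluent wild type and confluent wild-type libraries lay 0.674 to 0.790 from it.

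**Figure D2:**
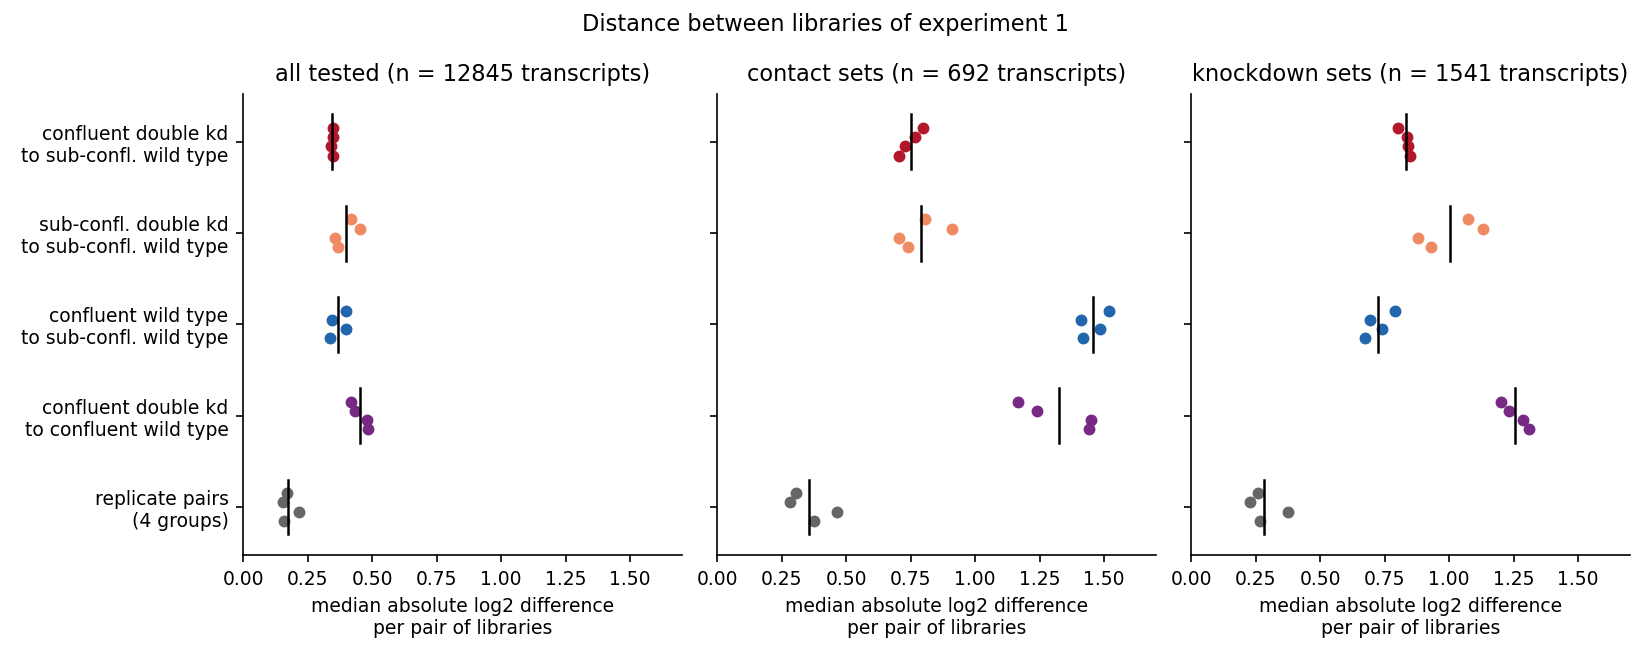
Median absolute log2 difference for each pair of libraries (points; the vertical line is the mean over the points of a row), over all tested transcripts, the 692 contact-responsive ones and the 1541 knockdown-responsive ones. Over contact-responsive transcripts the confluent double knockdown to sub-confluent wild-type pairs sit at 0.706 to 0.797, to the left of the confluent wild-type pairs at 1.412 to 1.518.

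Transcripts raised at contact lay, by their median, near the sparse wild-type level in crowded double knockdown cells, but single members lay on both sides of it. Relative to the mean of the sub-confluent wild-type libraries, the median member of the 403 stood at 0.00 and 0.39 on the log2 scale in confluent double knockdown replicates 1 and 2, at -0.17 and -0.49 in the sub-confluent double knockdown libraries, and at 1.72 and 1.54 in the confluent wild-type libraries. Both confluent double knockdown libraries thus lay far below both confluent wild-type libraries. The median fitted log2 fold change over sub-confluent wild type was 0.25, against 0.02 over all tested transcripts, and it was -0.05 without confluent double knockdown replicate 2. Without confluent double knockdown replicate 1 it was 0.39, and with sub-confluent wild-type replicate 1 left out it was 0.38. Members spread widely around it, with quartiles at -0.59 and 1.14 where all tested transcripts had -0.32 and 0.34. Of the 403, 40 were called higher (9.93%) and 50 lower (12.4%), shares below the 12.3% and 14.1% over all tested transcripts, while 31 (7.69%) had an interval within 2-fold, far fewer than the 63.2% over all tested transcripts. In confluent wild type, which is compared with the same sub-confluent libraries, 312 of them were called higher and 0 lower, beside 14.3% and 15% of all tested transcripts. Sub-confluent double knockdown, set against those libraries too, had 14 of them called higher and 106 lower, beside 16.7% and 18.1% of all tested transcripts. Of the 403, 302 (74.9%) had a confluent double knockdown mean nearer to sub-confluent than to confluent wild type, where 61.3% of all tested transcripts did. The same share was 63.3% for the transcripts lowered at contact, and 65.4% and 74.9% for those raised and lowered by the knockdown in experiment 2.

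The 289 transcripts lowered at contact had a median nearer to the sparse than to the confluent wild-type level, but member by member 183 of them (63.3%) were nearer to it, close to the 61.3% over all tested transcripts. Their median stood at -0.11 and -0.31 in confluent double knockdown replicates 1 and 2, at -0.08 and 0.21 in sub-confluent double knockdown libraries, and at -1.25 and -1.37 in confluent wild-type libraries. The median log2 fold change of confluent double knockdown over sub-confluent wild type was -0.22. Leaving out confluent double knockdown replicate 1 made it -0.35, and leaving out replicate 2 made it -0.15. Of the 289, 81 were called lower (28%, against 14.1% of all tested transcripts) and 26 higher (9%, against 12.3%). An interval within 2-fold was found for 108 (37.4%), against 63.2% of all tested transcripts. In confluent wild type 232 were called lower and 0 higher, beside 15% and 14.3% of all tested transcripts. Sub-confluent p190A replicate 2 took part in choosing both lists, and its group had the widest replicate spread in experiment 1. Without that library 223 transcripts were chosen as raised and 169 as lowered, with medians of 0.24 and -0.27 between confluent double knockdown and sub-confluent wild type.

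**Figure D3:**
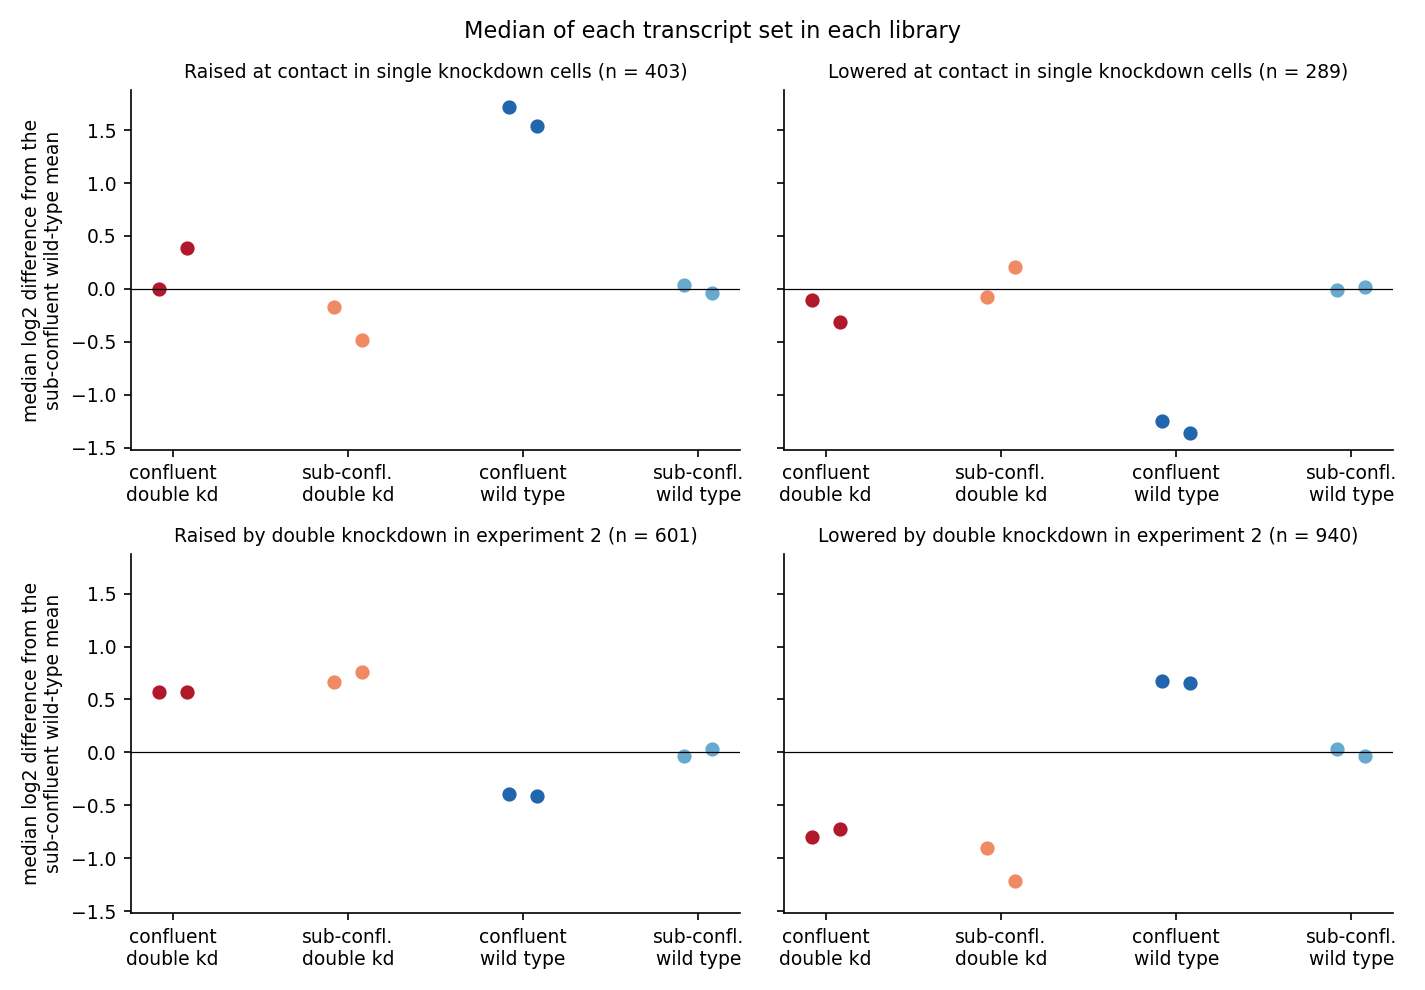
Median log2 difference from the mean of the sub-confluent wild-type libraries, for each list of transcripts (panels) in each library (points) of 4 groups of experiment 1. Confluent double knockdown libraries sit at 0.00 and 0.39 for transcripts raised at contact, where confluent wild-type libraries sit at 1.72 and 1.54, and at 0.57 and 0.57 for transcripts raised by the knockdown in experiment 2, where confluent wild-type libraries sit at -0.39 and -0.41.

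Crowded double knockdown cells also differed from sparse wild-type cells in transcripts that the knockdown had changed in experiment 2. That experiment shares no library with experiment 1. Its fit also took in 3 confluent libraries labelled double knockdown with YAP5SA+S94A and 2 distinct confluent libraries labelled YAP5SA. These entered the filter, scaling and estimate of the spread. The comparison itself was of 3 confluent double knockdown with 3 confluent wild-type libraries. There, 636 transcripts were called higher by 2-fold or more (4.87% of 13061) and 1102 lower by as much (8.44%). Of the 601 raised transcripts that could be tested here, 256 were called higher in confluent double knockdown than in sub-confluent wild type (42.6%, against 12.3% of all tested) and 39 lower, with a median log2 fold change of 0.59. Of the 940 lowered transcripts that could be tested, 401 were called lower (42.7%, against 14.1%) and 26 higher, with a median of -0.82. These medians differed little between libraries, at 0.57 and 0.57 for the raised and -0.80 and -0.72 for the lowered list in confluent double knockdown replicates 1 and 2. In sub-confluent double knockdown libraries they were 0.67 and 0.76 for the raised list and -0.90 and -1.22 for the lowered list. Confluent wild-type libraries lay on the other side of sub-confluent wild type, at -0.39 and -0.41 for the raised list and 0.67 and 0.66 for the lowered list.

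The lists were crossed over the 12250 transcripts tested in all 3 fits, to group contact-responsive transcripts by what the knockdown did in experiment 2. The change described is the density change of wild type plus the knockdown change at confluence. Where the lists hold in these libraries, like directions add and opposite ones offset. The order of the classes is therefore largely set by how they were chosen. Over all tested transcripts 12.3% were called higher, 14.1% lower and 63.2% had an interval within 2-fold. The 144 transcripts raised at contact and lowered by the knockdown had a median below the sparse level, at -0.62 (-0.85 to -0.41 over the 4 pairs of libraries), with 42 called lower and 4 higher. The 230 raised at contact and in neither knockdown list had a median of 0.67, with 25 called higher and 7 lower, and the median depended on the libraries paired, from 0.14 to 0.74. The 16 raised by both had a median of 1.49, with 9 called higher and 1 lower. On the other side, the 77 transcripts lowered at contact and raised by the knockdown had a median of 0.12 (0.03 to 0.30 over pairs), with 17 called higher and 15 lower. The 175 lowered at contact and in neither knockdown list had a median of -0.24 (-0.39 to -0.08 over pairs), with 7 called higher and 46 lower, and 89 of them (50.9%) had an interval within 2-fold. The 24 lowered by both had the lowest median of the 9 classes, -1.83, with 16 called lower and 0 higher. Outside the contact lists, the 483 transcripts raised by the knockdown had a median of 0.64 and the 669 lowered by it a median of -0.74. The 10432 transcripts in no list had a median of 0.03, with 1234 called higher and 1284 lower, and 73.6% had an interval within 2-fold.

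**Figure D4:**
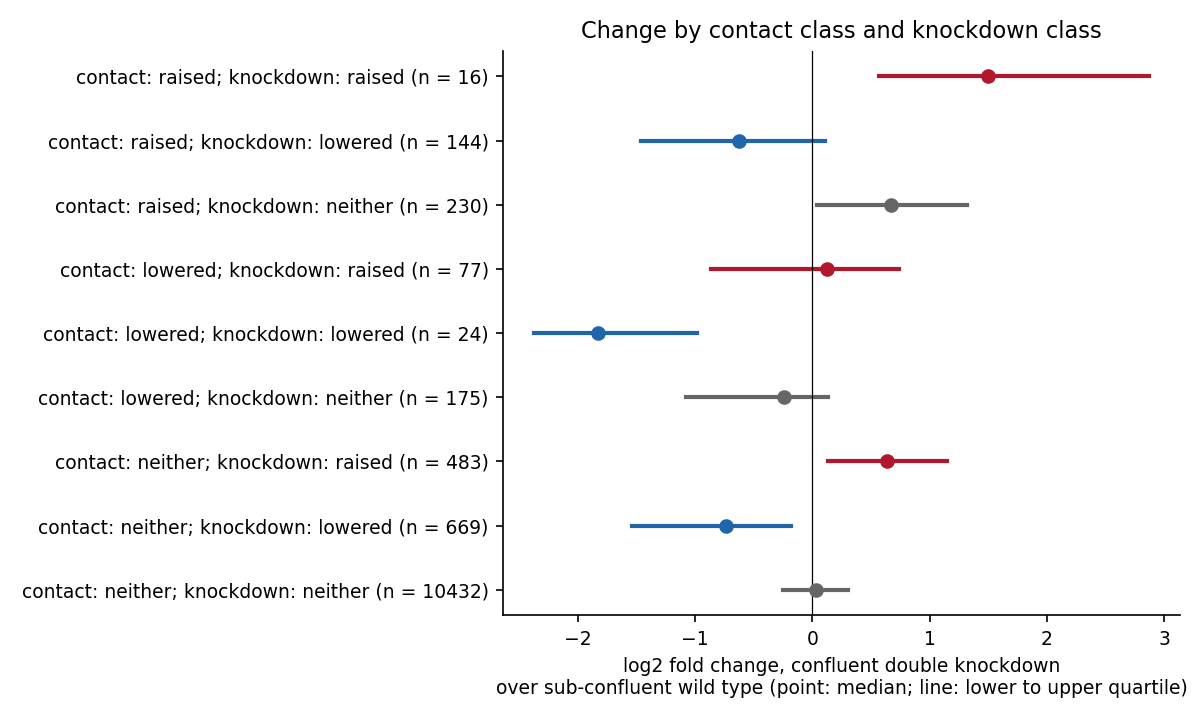
Log2 fold change of confluent double knockdown over sub-confluent wild type in 9 classes of transcripts, by their change at contact in single knockdown cells and by the double knockdown in experiment 2 (points: medians; lines: lower to upper quartile). The classes raised by both and lowered by both lie furthest from 0, at 1.49 and -1.83, an order largely set by how the classes were chosen.

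Seen from the transcripts that differed, 391 of the 425 called at least 2-fold higher were tested in all 3 fits, and 152 of them (38.9%) were on the knockdown-raised list, which holds 4.70% of the 12250. Of the 673 such transcripts among the 751 called at least 2-fold lower, 286 (42.5%) were on the knockdown-lowered list, which holds 6.83%. The contact lists held fewer of them. Transcripts raised and lowered at contact made up 8.95% and 3.32% of those at least 2-fold higher, and 7.43% and 10.1% of those at least 2-fold lower, against 3.18% and 2.25% of the 12250. A further 202 of the 391 (51.7%) and 317 of the 673 (47.1%) were in none of the 4 lists. These are smaller shares than over all transcripts tested in the 3 fits, where 10432 of the 12250 were in no list. Counting every call of experiment 2 whatever its size, 283 of 402 transcripts at least 2-fold higher here were also higher there and 59 lower, and 543 of 732 at least 2-fold lower here were also lower there and 84 higher, where 35.2% of all transcripts tested there were called higher and 35.1% lower.

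The neighbouring comparisons of the same fit share libraries with this one, so their counts are given side by side. Confluent wild type was called different from sub-confluent wild type in 3769 transcripts (29.3%), and sub-confluent double knockdown from sub-confluent wild type in 4467 (34.8%). Whether the change of crowded double knockdown over sparse wild-type cells differs from the first of these is tested by confluent double knockdown against confluent wild type, which had 5599 calls (43.6%; 21.9% higher and 21.6% lower). Whether it differs from the second is tested by confluent against sub-confluent double knockdown, which had 232 calls (1.81%; 0.911% higher and 0.895% lower). Whether it differs from the sum of both is tested by the interaction of density and double knockdown, with 420 calls (3.27%; 2.42% positive and 0.849% negative). For 55.2% of transcripts the interval of confluent double knockdown over confluent wild type lay within 2-fold, and for 73.1% that of confluent over sub-confluent double knockdown did. The 420 interaction calls became 1319 with a replicate block within density, 1213 with no filter on low counts and 640 with DESeq2. The count of 232 for confluent against sub-confluent double knockdown moved widely with the model and with single libraries. It was 1309 with a replicate block within density, 1146 with no filter on low counts and 473 with DESeq2. With a replicate block it was 354, and with only the groups compared it was 97. Leaving out confluent double knockdown replicate 1 or 2 gave 10 or 4 calls. Leaving out sub-confluent double knockdown replicate 2 gave 55 calls, and leaving out sub-confluent p190A replicate 2 gave 742. For confluent against sub-confluent wild type, leaving out confluent replicate 1 or 2 gave 1918 or 1775 calls, and leaving out sub-confluent replicate 1 or 2 gave 2323 or 1415. For sub-confluent double knockdown against sub-confluent wild type, leaving out double knockdown replicate 2 gave 2740 calls and leaving out wild-type replicate 1 gave 2874.

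The named transcripts had the largest fold changes in each direction among those called, at mean log2 CPM 3 or more, whose CPM values in the 2 groups had no overlap. Of all tested transcripts, 33.9% had higher and 32.0% lower values without overlap. Of those also called and at that level, 1332 were higher and 1318 lower, and the first 2 in each direction are given by identifier.

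ENSCAFT00000029936 was at 325 and 326 CPM in confluent double knockdown replicates 1 and 2, against 21.2 and 18.9 CPM in sub-confluent wild-type replicates 1 and 2. The groups were far apart, with a log2 fold change of 4.02 (SE 0.44, edgeR adjusted p = 2.6e-05). It was also high in crowded p190B knockdown cells, at 687 and 591 CPM, and its level in confluent wild type was 80.5 and 108 CPM. In experiment 2 it was at 70.3, 75.2 and 77.6 CPM in double knockdown and 15.6, 13.4 and 15.8 CPM in wild-type libraries.

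ENSCAFT00000001168 was at 90.2 and 96.7 CPM in confluent double knockdown libraries, against 4.67 and 7.95 CPM in sub-confluent wild type, a log2 fold change of 3.88 (SE 0.23, edgeR adjusted p = 1.4e-07). Every knockdown group of experiment 1 lay above both wild-type groups, whose highest library was at 15.8 CPM. In experiment 2 the double knockdown libraries held 58.3, 64.95 and 69.1 CPM and the wild-type libraries 13.3, 12.6 and 17.96 CPM.

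ENSCAFT00000013912 had the largest fall, to 1.24 and 2.78 CPM in confluent double knockdown libraries, against 262 and 146 CPM in sub-confluent wild type (log2 fold change -6.61, SE 0.34, edgeR adjusted p = 7.6e-08). It was also the transcript with the largest fold lowering at contact in single knockdown cells among those at mean log2 CPM 3 or more there (log2 fold change -3.40, SE 0.18), and in confluent wild type it was at 14.96 and 14.78 CPM. For this transcript crowded double knockdown cells were thus further from sparse wild type than crowded wild-type cells were (log2 fold change over confluent wild type -2.83, SE 0.35, edgeR adjusted p = 3.4e-05). In sub-confluent double knockdown libraries it was already at 3.60 and 2.70 CPM. Confluent libraries with 1 shRNA were as low, at 1.57 and 1.85 CPM for p190A and 2.10 and 2.56 CPM for p190B. Their sub-confluent counterparts held 9.99 and 14.2 CPM for p190A and 34.9 and 38.2 CPM for p190B. In experiment 2 the double knockdown libraries held 4.30, 2.95 and 3.48 CPM and the wild-type libraries 13.6, 10.7 and 13.3 CPM.

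ENSCAFT00000011305 was at 2.39 and 3.85 CPM in confluent double knockdown libraries, against 258 and 202 CPM in sub-confluent wild type (log2 fold change -6.17, SE 0.52, edgeR adjusted p = 2.9e-06). In confluent wild type it was at 130 and 173 CPM and was not called against sub-confluent wild type (log2 fold change -0.60, SE 0.38, edgeR adjusted p = 0.25, with a 95% interval of -1.43 to 0.22). The low level was not particular to crowded double knockdown cells. Sub-confluent double knockdown libraries held 10.2 and 4.34 CPM. With the p190B shRNA alone it was at 2.35 and 9.07 CPM at confluence and 3.57 and 7.95 CPM below it. With the p190A shRNA alone it was at 28.2 and 39.6 CPM at confluence and 76.1 and 58.2 CPM below it. In experiment 2 it was lower in double knockdown by less, with 41.5, 40.3 and 39.5 CPM in double knockdown and 121, 126 and 122 CPM in wild-type libraries.

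**Figure D5:**
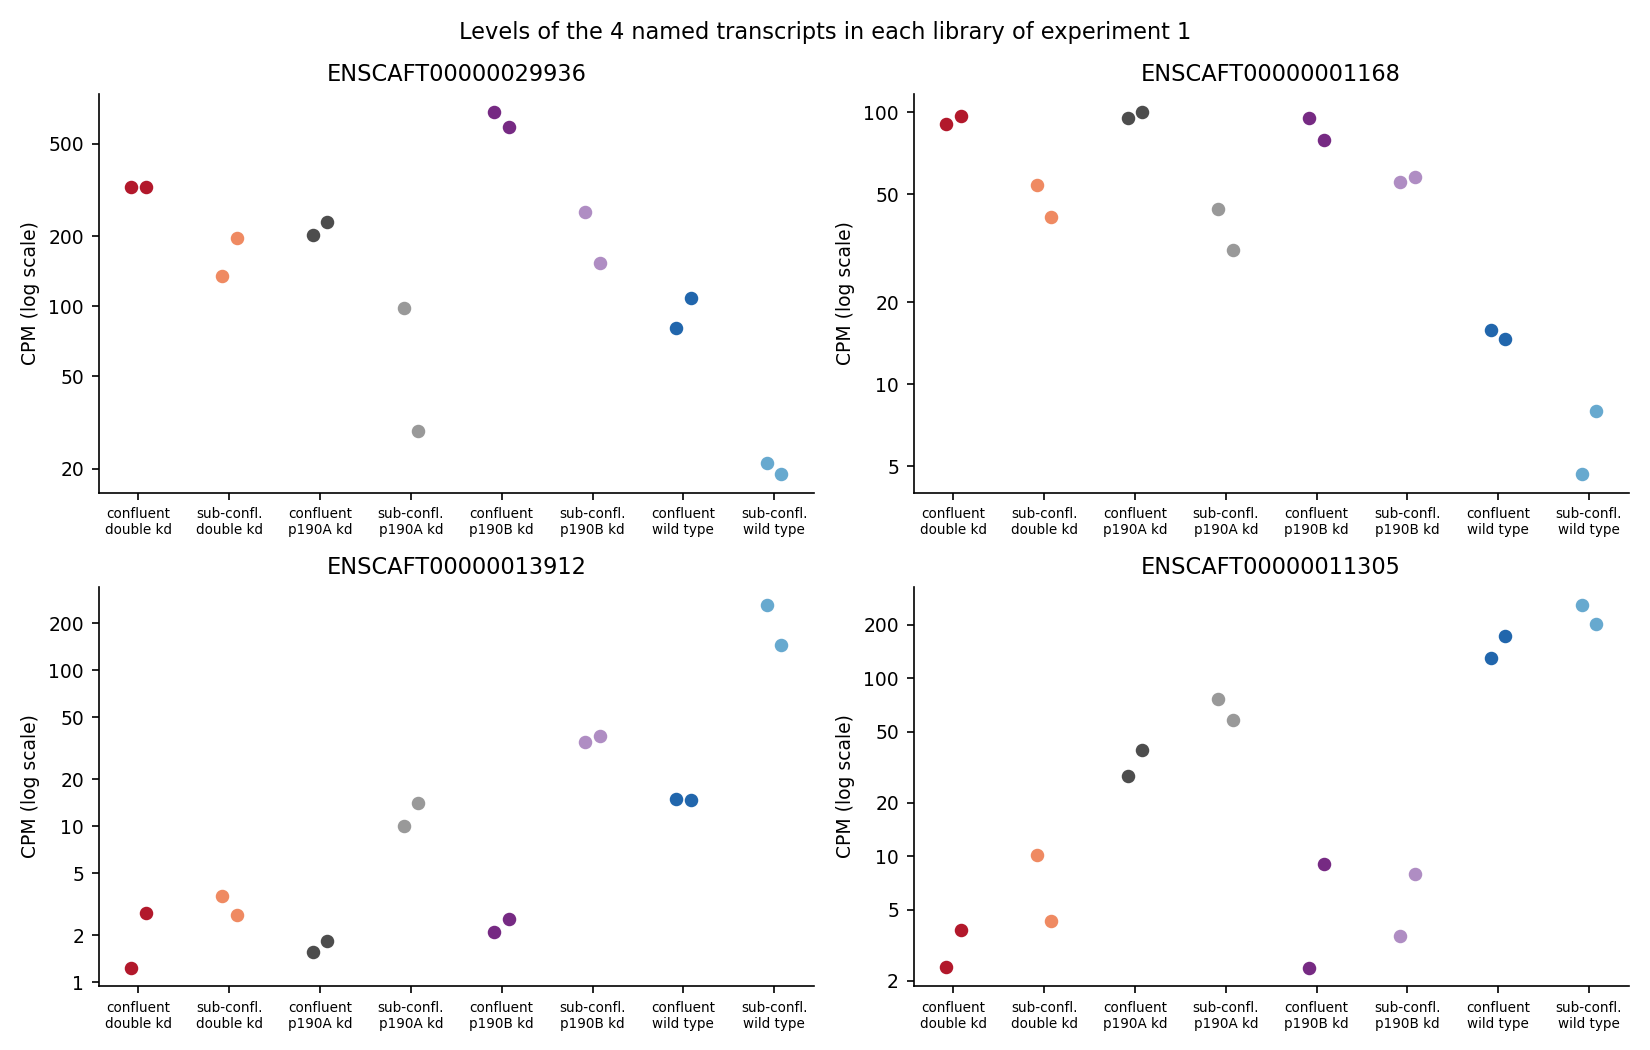
CPM (log axis) of the 4 named transcripts in each library (points) of the 8 groups of experiment 1. In each panel the confluent double knockdown libraries at the left and the sub-confluent wild-type libraries at the right do not overlap, with 325 and 326 against 21.2 and 18.9 CPM for ENSCAFT00000029936 and 1.24 and 2.78 against 262 and 146 CPM for ENSCAFT00000013912.

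The transcript with the largest rise at contact in single knockdown cells, by the same rule (log2 fold change 3.17, SE 0.64) behaved otherwise. It was at 1.32 and 3.22 CPM in confluent double knockdown libraries, against 3.67 and 3.79 CPM in sub-confluent wild type, and at 34.6 and 26.1 CPM in confluent wild type. The confluent double knockdown libraries lay below the sub-confluent wild-type ones and far below the confluent wild-type ones. Its difference from sub-confluent wild type was not called (log2 fold change -0.67, SE 0.92, edgeR adjusted p = 0.64), and the 95% interval of -2.64 to 1.30 leaves both a fall and a rise of over 2-fold possible. In sub-confluent double knockdown libraries it was at 0.37 and 0.12 CPM (5 and 2 reads). Its log2 fold change from sub-confluent to confluent was 3.30 in double knockdown (SE 1.46, edgeR adjusted p = 0.25) and 3.02 in wild type (SE 0.78, edgeR adjusted p = 0.012). Their difference was not called (0.28, SE 1.65, edgeR adjusted p = 0.95). Sub-confluent p190A knockdown libraries, which took part in choosing it, held 17.7 and 1.025 CPM. In experiment 2 the transcript was at 2.27, 2.12 and 2.15 CPM in double knockdown and 127, 131 and 123 CPM in wild-type libraries.

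Few transcripts were read in only 1 of the 2 groups. With at least 10 reads in each library of one group and 0 in both of the other, 2 were seen only in confluent double knockdown and 9 only in sub-confluent wild type. The best covered of the 9 had 0 and 0 reads in confluent double knockdown libraries and 81 and 85 reads in sub-confluent wild type. Against a floor of 3 reads per library this was at least 25.8-fold lower in confluent double knockdown. It also had 0 reads in both sub-confluent double knockdown libraries and 99 and 115 reads in the confluent wild-type ones. Leaving out 1 library gave 2 to 5 transcripts in the first direction and 12 to 21 in the second, since fewer libraries then had to be at 0 or above 10 reads.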

How the data were processed

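Per the labels' protocols, single reads were sequenced from polyA RNA prepared with a TruSeq mRNA kit. HTSeq 0.6.0, STAR 2.3.1n, DESeq2 1.4.5 and the dog build CanFam3.1 are listed in the submitters' processing notes, with no role given. Each deposited table holds whole-number read counts, made by the authors, for 29884 transcripts and 5 summary rows, which were left out. In the 4 libraries compared, 21.2% to 23.1% of reads placed once were ambiguous between transcripts and 21.2% to 22.3% lay outside any transcript, so overlapping transcripts were measured from part of their reads. Use of strand in counting was not given in the sources used here.

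The 16 libraries of experiment 1 were fitted with 8 group means in edgeR 4.0.16 (R 4.3.3; filterByExpr, TMM, robust quasi-likelihood F-test, Benjamini-Hochberg over 12845 transcripts, called at adjusted p under 0.05). The common biological coefficient of variation was 0.128. Standard errors came from the F statistic and intervals from its t quantile. Log2 CPM used a prior count of 2. Contact lists came from a fit of the 8 single knockdown libraries and knockdown lists from the 11 distinct libraries of experiment 2, since 1 of the files there repeated another. The shared spread estimate still used the single knockdown libraries. The lists are described by counts and medians, without a test. The rule for named transcripts was the 2 largest called changes in each direction, by identifier, with mean log2 CPM of at least 3 and no overlap, plus the first member of each contact list. The gene and marker lists were not run because no names matched. Alternatives were DESeq2 1.42.0, limma-voom 3.58.1, RLE factors, no filter, the compared libraries alone, replicate blocks and leaving out libraries. The fits were tested on simulated data. The simulated libraries were independent and few of their transcripts were changed, unlike these data, so no support is drawn from that test. Members and lists were chosen with earlier results of these data known.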

Additional observations from a re-analysis of the deposited data

Results flagged for a closer look

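For 420 transcripts, density had an effect in the double knockdown that differed from its effect in wild type (3.27% of those tested), by the interaction term of the edgeR fit at adjusted p under 0.05. It was more positive in the double knockdown for 311 of them and more negative for 109. There were 1319 calls with a replicate block within density, 1213 with no filter on low counts and 640 with DESeq2. Leaving out confluent double knockdown replicate 1 or 2 gave 80 or 248 calls. Leaving out confluent wild-type replicate 1 or 2 gave 118 or 77, and leaving out sub-confluent wild-type replicate 1 or 2 gave 103 or 127. Without sub-confluent p190A replicate 2 there were 794, and without sub-confluent double knockdown replicate 2 there were 273.

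Among the named transcripts, the response of ENSCAFT00000013912 to density differed by 3.20 on the log2 scale between double knockdown and wild type (SE 0.50, edgeR adjusted p = 0.0064). Its log2 fold change from sub-confluent to confluent was -0.58 in double knockdown and -3.78 in wild-type cells. In sub-confluent double knockdown it was already at 3.60 and 2.70 CPM (49 and 46 reads), against 262 and 146 CPM in sub-confluent wild type. The change in double knockdown thus started from a low level.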

How the results depend on the processing

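All 4 named transcripts kept their direction and call under every alternative run. They had been picked as the largest called changes in the same libraries, so this does not bear on the other transcripts. Calls in this comparison numbered 3267 to 4681 over the tools, scalings, filter, fits and blocks, and 2111 to 3914 when 1 library was left out (894 to 1863 higher, 1118 to 2051 lower), where the library left alone in its group was taken to vary as other groups do. The median of the transcripts raised at contact ranged from -0.048 (reversed, without confluent double knockdown replicate 2) to 0.39 over the left-out libraries, that of the lowered ones from -0.35 to -0.15, and that of the knockdown-lowered list from -0.92 to -0.76. With lists of at least 1.5-fold, the medians were -0.0717 for contact-lowered, 0.34 for knockdown-raised and -0.47 for knockdown-lowered transcripts. Among transcripts with a mean log2 CPM of at least 3, distances shrank to 0.288 for confluent double knockdown to sub-confluent wild type, 0.308 for confluent wild type and 0.343 for sub-confluent double knockdown to the same, and 0.391 for confluent double knockdown to confluent wild type; with a prior count of 0.5 the first was 0.354. At 20 reads, 0 transcripts were read only in confluent double knockdown and 4 only in sub-confluent wild type; over left-out libraries these were 2 to 5 and 12 to 21.

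Replicate numbers are shared across groups, but deviations of confluent double knockdown and sub-confluent wild type correlated at -0.0609 across transcripts, so the numbers do not pair them. Same-numbered libraries of 1 density correlated at 0.142 to 0.537. With a replicate block the count was 3728, and with a replicate block within density 4681. Confluent against sub-confluent double knockdown moved from 232 calls to 354 with a replicate block, 1309 with a replicate block within density, 1146 without the filter, 473 with DESeq2 and 97 with only the groups compared (4 to 742 over left-out libraries). The interaction moved from 420 to 1319 with a replicate block within density, 1213 without the filter and 640 with DESeq2 (77 to 794 over left-out libraries). Over left-out libraries confluent wild type against sub-confluent wild type gave 1415 to 4379 calls and sub-confluent double knockdown against it 2740 to 5006. The cause of these shifts was not tested. The median standard error of the log2 fold change was 0.467 in the lowest quartile of level and 0.121 in the highest.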
